A study of Saccharomyces cerevisiae with 4 samples.

Results

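The genes described here are SWI4, SWI6, MBP1, WHI5, CLN1, CLN2, CLN3, PCL1 and SVS1 of budding yeast, which build, drive or answer the switch called Start. They were taken by name, as the probes that the platform annotation assigns to these genes, and the names were listed after results of the same arrays had been seen. All 9 were measured, each by 1 probe, among 5539 named genes and 6189 features (named genes plus probes without a gene name). The set was chosen by these same ratios in part, since the opposite signs of SWI4 on different arrays were already known, so the values of these 9 genes are a description and carry no test.

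Each of 4 arrays set RNA of the temperature-sensitive abf1-1 strain (channel 1) against RNA of wild type yeast (channel 2). ABF1 encodes an essential DNA-binding factor of promoters, replication origins and silencers. Both strains grew in YPAD, a rich medium, at 30 °C, received an equal volume of YPAD warmed to 42 °C, and stood for 45 min at 36 °C before harvest, so wild type cells met the same heat. The labels number the arrays 1 to 4 and do not name the strain background, the mating type, the dyes or separate cultures, so the spread between arrays may be technical. Every value is a ratio of the strains within an array, not a level.

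Cells commit to a new division cycle at Start, late in G1. The cyclin Cln3 with the kinase Cdc28 relieves the repressor Whi5 from SBF, a transcription factor made of the DNA-binding protein Swi4 and its partner Swi6. MBF, made of Mbp1 and the same Swi6, acts beside it. SBF turns on the G1 cyclin genes CLN1, CLN2 and PCL1 and genes for the cell wall, while MBF serves many genes of DNA replication, and the new cyclins feed back on the switch.

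The ratios are given as log2 with each array's median set to 0. The base of the logarithm is not stated and was taken as log2. Which strain forms the numerator is not stated either, so a sign is the deposited sign and says nothing of which strain was higher. Across the 6226 probes, which are not independent, Pearson's r was 0.742 between arrays 1 and 3 and 0.864 between arrays 2 and 4. The 4 correlations between an array of one pair and an array of the other lay between -0.221 and 0.05. No label parts the arrays in this way. Values are therefore given for every array, and no mean over a pair is used. Means with reversed signs for arrays 2 and 4, called turned means below, are printed as well. No label calls for this reversal, since the strains have the same channels on every array. An unstated numerator gives no reason to reverse only arrays 2 and 4, so turned means are only a description.

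Of the DNA-binding and regulatory subunits, SWI4 had the widest values. It had -0.76 on array 1, 1.60 on array 2, -0.90 on array 3 and 1.63 on array 4. Arrays 1 and 3 were negative and arrays 2 and 4 positive, and no value lay near 0. As fold differences these were 1.69 and 1.87 in one direction and 3.04 and 3.09 in the other. The mean of 0.39 ± 1.41 (SD, n = 4) is far smaller than its spread, and the turned mean was -1.22 ± 0.46. By range from the lowest to the highest array, 2.53, SWI4 ranked 120 of the 5539 named genes, whose median range was 0.591. Counted from the highest ratio it ranked 73 and 39 on the arrays where it was positive, and 5221 and 5281 where it was negative.

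MBP1, the DNA-binding subunit of MBF, had 0.15, 0.71, -0.01 and 0.42 on arrays 1 to 4. Its higher values also stood on arrays 2 and 4, and arrays 1 and 3 lay near 0, with a mean of 0.32 ± 0.32 (SD, n = 4). SWI6, the subunit that SBF and MBF share, had 0.08, 0.01, 0.06 and 0.04. All 4 values of SWI6 were slightly positive, and its range of 0.0718 ranked 5523 of 5539 genes, among the narrowest in the table. SWI4 and SWI6 thus lay near opposite ends of that order although their proteins form 1 complex. The values of SWI6 were wider apart after the centring within probe blocks described below.

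WHI5, the gene of the repressor that holds SBF inactive, had 0.18, 0.30, -0.20 and 0.14. The negative value on array 3 is 1 exact number that 41 probes share on that array, and neither labels nor table explain it. Without it the mean of WHI5 was 0.21 on 3 arrays, against 0.10 ± 0.21 (SD, n = 4) with it. No other value of the 9 genes was such a shared number.

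CLN3, the cyclin gene upstream of SBF, had -1.82 on array 1, 1.58 on array 2, -0.09 on array 3 and 1.47 on array 4. Its signs were those of SWI4, but arrays 1 and 3 differed by 1.74, the 41st-widest gap between those arrays among 5539 genes, where the median gap was 0.162. Arrays 2 and 4 differed by only 0.105. The mean was 0.28 ± 1.60 (SD, n = 4), and the turned mean -1.24 ± 0.78. By range CLN3 ranked 38 of the named genes, the widest of the Start genes. Leaving out 1 array gave CLN3 a mean between -0.15 (without array 2) and 0.99 (without array 1), and SWI4 one between -0.02 (without array 4) and 0.83 (without array 3), so for both the sign of the mean rests on which arrays enter.

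CLN2 and PCL1, cyclin genes that SBF turns on, carried the signs in the opposite order. CLN2 had 0.62, -0.22, 0.31 and -0.11 on arrays 1 to 4, with a mean of 0.15 ± 0.39 (SD, n = 4) that ran from -0.01 to 0.27 with 1 array left out. PCL1, whose product is a cyclin of the kinase Pho85, had 0.49, -0.33, 0.52 and -0.13, with a mean of 0.14 ± 0.44. Arrays 1 and 3 were positive and arrays 2 and 4 negative for both genes, with sizes below those of SWI4 on every array. The turned means were 0.32 ± 0.22 for CLN2 and 0.37 ± 0.18 for PCL1. The root mean square distance between CLN2 and PCL1 over the 4 arrays was 0.137, and PCL1 was the gene ranked 136 of 5538 by nearness to CLN2.

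CLN1, the paralog of CLN2, had -0.28, -0.42, 0.10 and -0.10. It was negative on 3 arrays and gave the only negative mean of the 9 genes, -0.17 ± 0.23 (SD, n = 4). Probe sequences were not used here, so signal shared between these similar genes could not be examined. SVS1, which encodes a protein of the cell wall and vacuole and is an SBF target in late G1, had 0.67, 0.18, 0.65 and 0.68. It was positive on every array, and array 2 stood below the other 3. Its mean of 0.54 ± 0.24 was the largest of the 9 genes, and the turned mean was 0.12 ± 0.66.

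**Figure D1:**
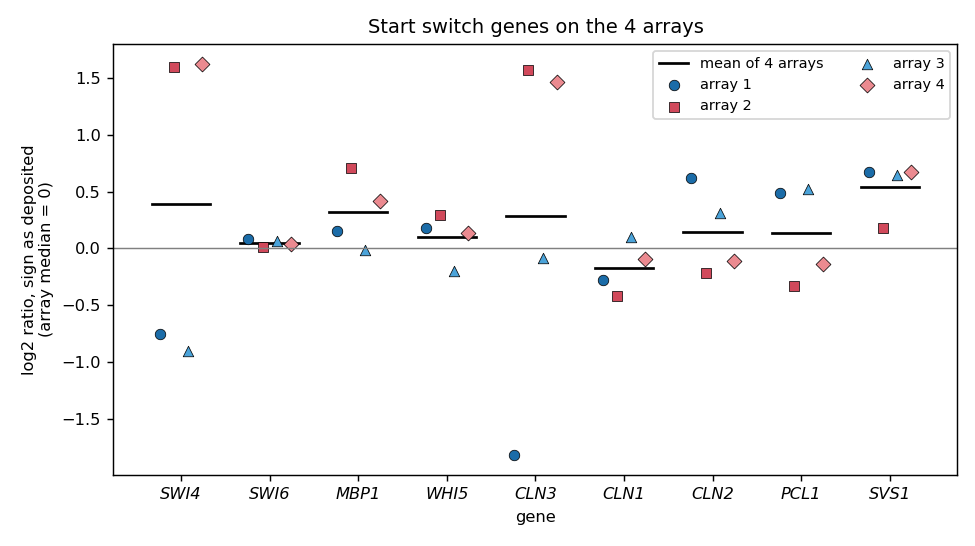
Log2 ratio (vertical axis, sign as deposited, array median at 0) of the 9 Start genes on arrays 1 to 4, with a line at the mean of the 4 arrays. SWI4 and CLN3 are highest on arrays 2 and 4, CLN2 and PCL1 are lowest there, SWI6 lies close to 0, and SVS1 is positive on all 4 arrays.

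In the limma fit of the mean ratio against 0, with Benjamini-Hochberg adjustment over all features, 0 of the 9 genes had an adjusted p below 0.05, beside 3.23% of all 6189 features (200). That fit takes the 4 arrays as independent. With the pairs of correlated arrays as random blocks, added after seeing the data, the estimated correlation within pairs was 0.732 and 2 features were called, 0 of the 9 genes among them. At an unadjusted p below 0.05 there was 1 of 9, beside 20.8% of all features. In the fit of turned ratios 1 of 9 passed, SWI4, beside 4.88% of all features. That fit called 301 negative features (4.86%) and 1 positive feature (0.0162%). These counts of Start genes are given only as a description, since the arrays that give them also led to the choice of genes.

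By sign, SWI4 and CLN3 were negative on arrays 1 and 3 and positive on arrays 2 and 4, 2 of 9 genes beside 18.0% of all features. CLN2 and PCL1 had the mirror order, 2 of 9 beside 16.9%. SWI6 and SVS1 had 1 sign throughout, 2 of 9 beside 31.1%, and the other 3 genes had mixed signs. The orders differed in size. With a size of at least 0.5 on every array, a limit chosen after the values were seen, the order of SWI4 was met by 217 features (3.51%) and the mirror order by 0 (0.0%). Of the Start genes SWI4 alone met it. CLN3 missed it on array 3.

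**Figure D2:**
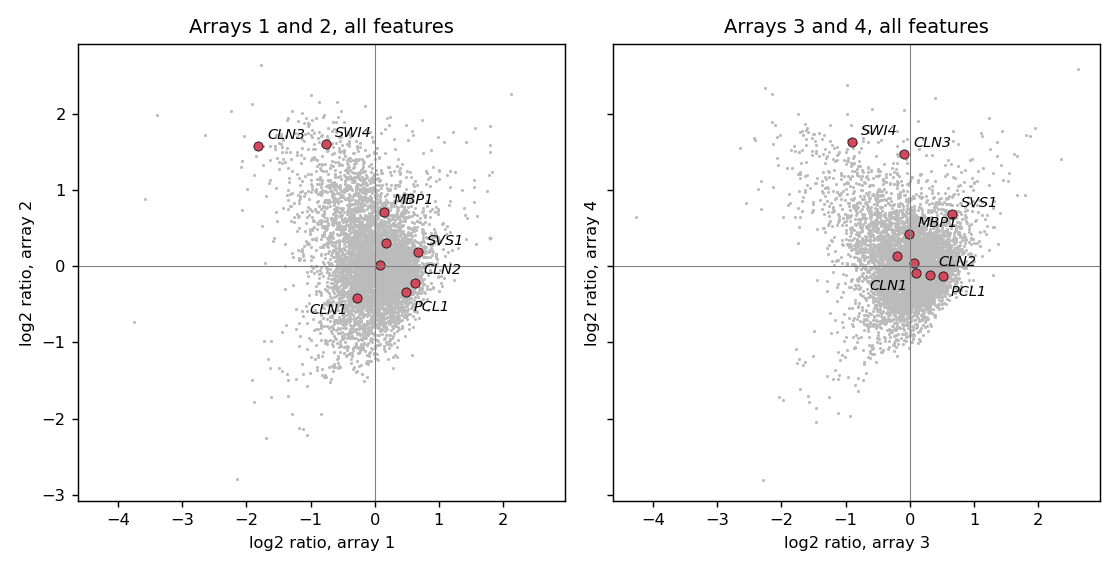
Log2 ratio of every feature (grey) on array 2 against array 1 (left) and on array 4 against array 3 (right), with the 9 Start genes in red and 7 of them named. SWI4 and CLN3 lie at upper left, where many features reach beyond 1 in size, and CLN2 and PCL1 lie at lower right, where sizes are smaller.

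The 5 named genes nearest to SWI4 by root mean square distance over the 4 arrays were FIG2, YCR102C, COS111, PET112 and ASK10. FIG2, which encodes a cell wall adhesin of mating cells, was nearest at a distance of 0.0461, with -0.73, 1.52, -0.92 and 1.61. YCR102C was at 0.0916, COS111 at 0.0917, PET112, a gene of mitochondrial translation, at 0.149 and ASK10 at 0.162. CLN3 came at 0.676, ranked 302 of 5538, and MBP1 at 0.982, ranked 771. PCL1, at 1.62, ranked 4767 and was the farthest of the Start genes from SWI4.

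The probe numbers of the table moved with this pattern. The table was read in 17 consecutive blocks of equal width in probe number, of which the last is only partly filled. The share of probes with the signs of SWI4 and a size of at least 0.5 on every array ran from 0% to 9.90%, beside 3.55% of all 6226 probes. Blocks 1, 2, 10 and 11 held 126 of the 221 such probes (57.0%) and 24.7% of all probes. CLN3 lay in block 1 (8.85%). Of the 12 probes next to it in the table, 7 had its signs, MCM2 among them, and 1 also had the size. By signs alone the share was 36.7% in block 1 and 18.0% over all features. SWI4 lay in block 5 (3.91%), and SWI6, without the pattern, in block 11 (8.33%). Of the 12 probes nearest to SWI4, 2 had its signs, beside 13.5% of block 5, and 1 also had the size. CLN2 and SVS1 lay in block 16, where the share with the size was 0.521%. Of the 5 genes nearest to SWI4, which were picked for the same pattern, 4 lay in blocks 1 and 2. The chromosome neighbours of SWI4, KAP123 and LSM4, had probe numbers 1611 and 1615, beside 1613 for SWI4. Those of CLN3, CYC3 and CDC24, had 151 and 155, beside 153 for CLN3. How far probe numbers follow chromosome order elsewhere was not examined, and place in the table and chromosome were not separated here. By chromosome the share was 10.8% on II, 9.62% on III, 6.67% on I, which holds CLN3, 6.5% on VI, and 6.33% on XII, which holds SWI6. It was 2.69% on V, which holds SWI4, and lowest on IX at 0.985%.

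When each array was centred within these blocks, a setting chosen after seeing the data, SWI4 had -0.81, 1.60, -0.98 and 1.62, as far from 0 as before. CLN3 had -1.70, 1.22, 0.07 and 1.22, so that array 3 changed sign and arrays 2 and 4 came closer to 0. SWI6 had 0.21, -0.12, 0.15 and -0.04, and was no longer positive on every array. Its SD was 0.16, against 0.03 before, and its signs were then those of CLN2 and PCL1. PCL1 had 0.42, -0.29, 0.46 and -0.13, and CLN2 had 0.53, -0.07, 0.24 and -0.04, so the signs of both stayed. In this setting 181 features met the order of SWI4 at the size of 0.5 and 5 met the mirror order.

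**Figure D3:**
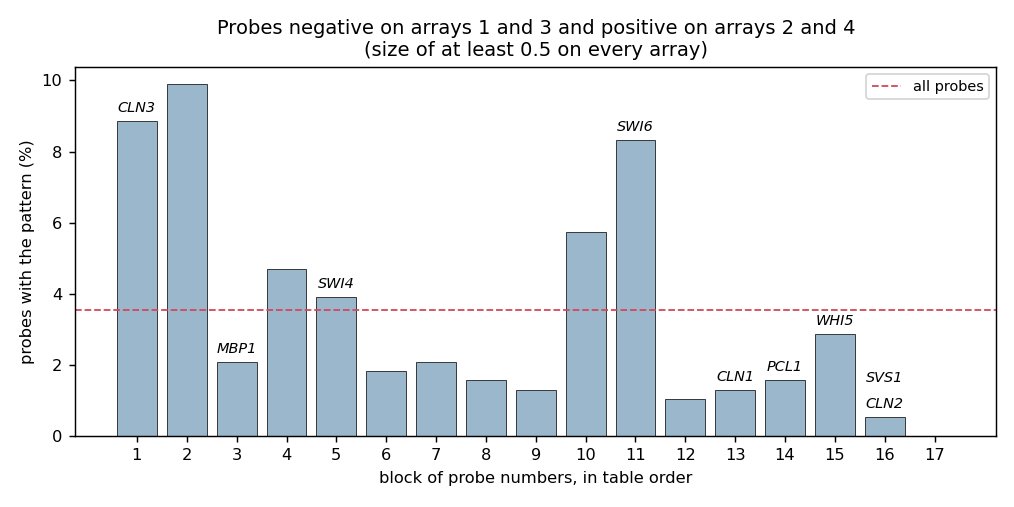
Percentage of probes (vertical axis) that were negative on arrays 1 and 3 and positive on arrays 2 and 4 with a size of at least 0.5 on every array, in 17 blocks of equal width in probe number, in table order, with the Start genes written over their blocks. The dashed line marks the 3.55% of all probes, and blocks 1, 2 and 11 reach above 8%.

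Coding length moved with the ratios too. Over 5535 genes with a length, the Spearman correlation of the log2 ratio with length was -0.167, 0.197, -0.309 and 0.138 on arrays 1 to 4, a description over genes that share the arrays. The 175 named genes that met the order of SWI4 at the size of 0.5 had a median length of 2109 bases, against 1269 for all. It was met by 7.77% of the 1107 longest genes and by 2.08% of the 1107 shortest. SWI4 (3282 bases), MBP1 (2502) and SWI6 (2412) were all among the longest, and only SWI4 of these showed the pattern. CLN3 has 1743 bases, near the 1638 of CLN2, which had the mirror signs. The part of probe number, chromosome and length in the values of SWI4 and CLN3 was not tested.

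Neither named chromosome neighbour of SWI4 had its pattern. KAP123, the next gene in the same orientation, which encodes a nuclear import receptor, had -0.84, -0.81, -0.57 and -0.58, and its mean of -0.70 ± 0.15 (SD, n = 4) passed limma with an adjusted p of 0.0372. It did not pass with any 1 array left out (adjusted p 0.125 to 0.23) or with the pairs of arrays as random blocks (0.382). LSM4, which is read away from SWI4 on its other side, had 0.06, -0.25, 0.43 and -0.54. Of 18 neighbours of the 9 genes 17 were measured. KAP123 was the only call, beside 3.23% of all features. CYC3, next to CLN3, was the only neighbour with the signs of SWI4, at -0.13, 0.17, -0.09 and 0.25, beside 18.0% of all features. Its probe is also among those counted above next to CLN3 in the table.

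Of 114 other genes of the cell cycle and mating measured in 7 lists, 3 were called (2.63%), 2 negative and 1 positive, beside 1.86% negative and 1.37% positive calls among all features. The lists were recalled from textbook knowledge with earlier results of these arrays known. With robust eBayes the count in each list was the same. At an unadjusted p below 0.05 limma gave 5 genes of the SBF list, 2 of the MBF list, 4 of Start regulation and 1 around the early cell cycle box. It gave 3 of the Pho85 list, 2 of the G2/M list and 3 of the pheromone list, beside 20.8% of all features. All lists had medians of the mean ratio between -0.09 and 0.17, beside 0.02 for all features.

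Among 22 genes linked to SBF, 0 were called, 11 had positive and 11 negative means, and the median was -0.01. The list medians were -0.05, -0.12, 0.06 and 0.09 on arrays 1 to 4, so the list did not carry the signs of SWI4. The widest ranges belonged to FKS1 and HO. FKS1, for a subunit of glucan synthase, had -3.75, -0.73, -0.81 and 0.25, far lower on array 1 than elsewhere. HO, the endonuclease gene of mating type switching through which SWI4 was first studied, had -0.14, 1.08, -0.47 and 0.86, the order of SWI4. PCL2, the paralog of PCL1, was close to 0 at -0.07, -0.06, -0.04 and 0.07. Of the list, 6 of 22 genes kept 1 sign on every array, beside 31.1% of all features, some positive and some negative. Those given here were named after their values were seen and were not called. GAS1 had -0.46, -0.54, -0.38 and -0.08, and GIC1 had -0.54, -0.16, -0.67 and -0.20. TOS8, for a homeodomain protein, had 0.56, 0.49, 0.44 and 0.54, and TOS2, for a protein of the bud neck and growth sites, had 0.43, 0.34, 0.38 and 0.37.

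Among 25 measured genes linked to MBF of 27 listed, 1 was called, with a list median of 0.00 and array medians of -0.02, 0.10, 0.06 and 0.00. NRM1, whose product represses MBF targets after G1, had -0.80, -0.79, -0.62 and -0.74. All 4 arrays of NRM1 lay close together, and its mean of -0.74 ± 0.08 (SD, n = 4) had an adjusted p of 0.0289 in limma. RFA1, for the large subunit of the single-stranded DNA-binding protein, had -0.99, 2.24, -2.07 and 1.69. POL12, of DNA polymerase alpha, had -1.45, 1.71, -1.79 and 1.51. Both had the order of SWI4 with a wider range, and neither mean passed limma (adjusted p 0.904 and 0.997).

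Among 10 measured genes around the early cell cycle box, the promoter element through which Mcm1, Yox1 and Yhp1 act on SWI4 and CLN3 itself, 0 were called and 8 means were negative (median -0.08). The array medians were 0.08, -0.16, -0.30 and -0.07. MCM2 had -0.69, 1.08, -1.14 and 0.90, and MCM7 had -0.70, 1.06, -1.26 and 0.65; both encode subunits of the replicative helicase. These 2 genes had the order of SWI4 at a size of at least 0.5, and the others of the list, MCM1 and the repressor genes YOX1 and YHP1 among them, did not. CDC6, for a loader of that helicase, was negative on every array at -0.72, -0.47, -0.68 and -0.42, was not called, and was named after its values were seen.

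Over all lists, 8 of 114 genes met the order of SWI4 at that size, beside 3.51% of all features. They were RFA1, POL12, POL2 and HCM1 of the MBF list, MCM2, MCM7, FIG2 and FUS1. POL2, HCM1 and FUS1 were named after their values were seen. All but POL2 lay in blocks 1 and 2 of the probe numbers, so 7 of the 8 lay in the 4 blocks richest in the pattern. Those blocks held 29 of the 114 list genes and 24.7% of all probes, but 57.0% of the probes with the pattern. The blocks were picked by the pattern that these genes also met, so the count is only a description. The part of probe number or chromosome in these values was not tested.

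Among 18 genes of Start regulation and G1 cyclin turnover 0 were called and the median was 0.02, with array medians of 0.05, -0.12, -0.05 and -0.06. CAK1, for the kinase that activates Cdc28, had -0.16, 0.99, -0.54 and 0.68. CDC53, for the scaffold of the ubiquitin ligase that marks G1 cyclins and Sic1, had -0.13, 0.85, -0.25 and 0.45. These were the widest ranges of the list, by which both genes were picked, and both were lower on arrays 1 and 3. In the list 2 of 18 genes had the signs of SWI4, beside 18.0% of all features. The mirror signs were met by 3 of 18, beside 16.9%. With a size of at least 0.5 on every array, 0 had the order of SWI4. CDC28 itself, the kinase gene of the switch, had 0.06, 0.42, 0.31 and 0.46. CKS1, for the small subunit that binds Cdc28, had -0.31, -0.76, -0.44 and -0.62, negative on every array and not called. CDC28 and CKS1 were named after their values were seen.

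Among Pho85 and 9 of its cyclins the kinase gene was the 1 call, and the list median was -0.07 with array medians of -0.15, -0.05, -0.08 and -0.11. PHO85, whose product is the kinase partner of Pcl1, had -0.67, -0.78, -0.57 and -0.78. The 4 values lay close together, with a mean of -0.70 ± 0.10 (SD, n = 4) and an adjusted p of 0.0319 in limma. PCL10, for a cyclin of glycogen control, had 0.53, 0.04, 0.35 and -0.23. PCL7 had -0.34, 0.15, -0.24 and 0.01. These cyclin genes had the widest ranges of the list.

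Of 16 G2/M genes 0 were called (median -0.09, array medians 0.01, 0.02, -0.17 and -0.19). KIN3 had 0.03, 1.56, -0.26 and 1.35, and BUD8, a bud site gene, had -0.32, 0.66, -0.43 and -0.29.

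Pheromone arrests cells before Start, so its genes were read beside the switch. Of 16 such genes 1 was called (median 0.17, array medians 0.00, 0.13, 0.03 and 0.11). AGA1, for the anchor of the a-agglutinin, had 1.01, 1.15, 0.75 and 1.31, positive on all arrays, with a mean of 1.06 ± 0.24 (SD, n = 4) and a limma adjusted p of 0.0274. FIG2 is described above. GPA1 had the other wide range, but all 4 of its values are the numbers that many probes share. FAR1, for the inhibitor of Cdc28 with G1 cyclins, had 0.35, -0.07, 0.18 and 0.08. Markers of a cells had positive means in 6 of 6 genes and markers of alpha cells in 3 of 4, with medians of 0.55 and 0.44. The a-cell medians were 0.80, 0.40, 0.92 and 0.37 on arrays 1 to 4, higher on arrays 1 and 3. The alpha-cell medians were -0.04, 0.71, 0.18 and 0.76, higher on arrays 2 and 4, where SWI4 was also high. Limma called 2 of 6 and 1 of 4 of these markers, beside the 3.23% of all features. The part of these markers in the values of the Start genes was not tested.

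With any 1 array left out none of AGA1, NRM1 and PHO85 passed (limma adjusted p 0.0735 to 0.243). With the pairs of arrays as random blocks none of them passed either, at 0.176 for AGA1 and 0.284 for NRM1 and PHO85. PHO85 also missed the threshold after quantile normalization (0.0509).

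**Figure D4:**
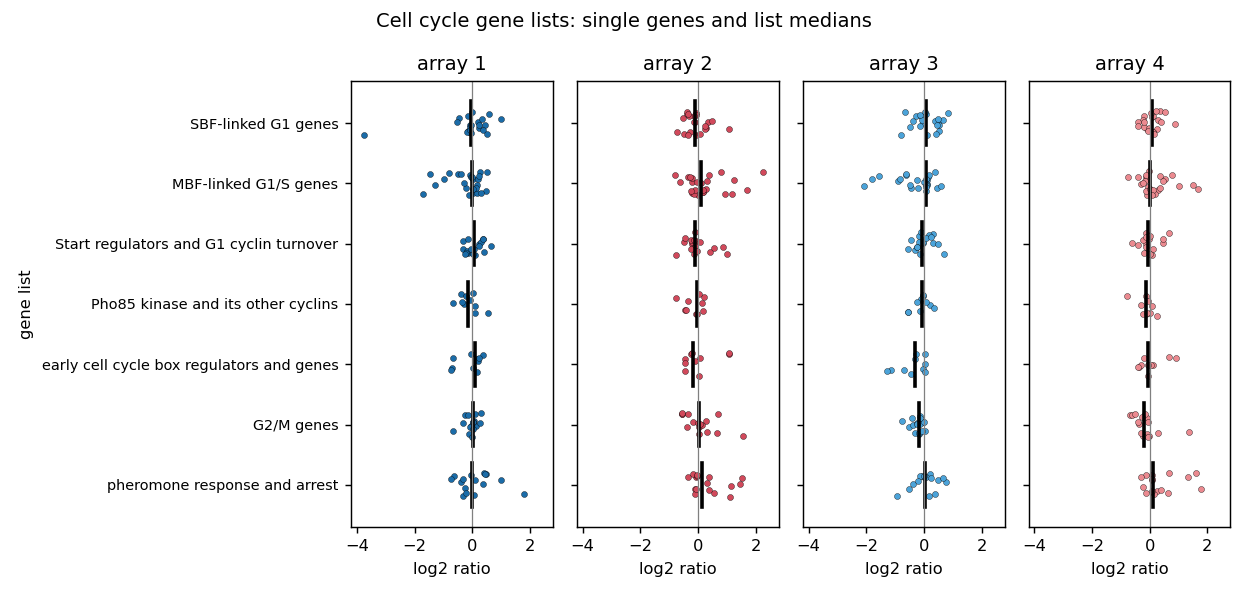
Log2 ratio (horizontal axis) of each gene in 7 lists of cell cycle and mating genes, 1 panel per array, with a black bar at the list median. List medians lie between -0.30 and 0.13, while single genes of the MBF list, such as RFA1 at -2.07 on array 3 and 2.24 on array 2, lie far to opposite sides.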

How the data were processed

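The authors deposited a log ratio, used here as log2, for each of 6226 probes on each of 4 arrays. The base, the numerator, the dyes, background correction and normalization were neither in the labels nor in the table. The deposited values had array medians between -0.03 and 0.03, an SD over probes of 0.49 to 0.59, 0 missing values and 0 columns without a sample. No spot brightness was used, and precision rests on the number of arrays. The platform annotation gave 5576 probes 1 gene, 0 several and 650 none. Symbols, coding lengths and gene order came from RefSeq assembly R64, where 4 probe identifiers had no entry.

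Arrays were centred on their median and probes of a gene averaged. The mean of each of 6189 features was tested against 0 with lmFit and eBayes of limma 3.58.1 (R 4.3.3; 3 residual degrees of freedom), Benjamini-Hochberg adjusted, two-sided. The fit was run on simulated data with arrays drawn independently, which cannot show how it behaves on correlated arrays such as these. Tables and plots used Python 3.11.15, pandas 2.3.3 and matplotlib 3.10.9.

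The Start genes and lists were chosen with earlier results of these data known. Named were the 9 genes, the 5 genes nearest SWI4, and from each list up to 4 called genes and the 2 widest in range; other genes were named after their values were seen. Results were recomputed without centring, with equal spread, with quantile normalization, with turned signs of arrays 2 and 4, without each array, with no shared values, robust eBayes, medians, an adjusted p below 0.01, centring within probe blocks, and pairs of arrays as random blocks (duplicateCorrelation), the last 2 added after seeing the data. Each Start gene had 1 probe, so probes could not be taken singly. Promoter sequences were not analysed here. A further gene list is not reported here.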

Additional observations from a re-analysis of the deposited data

Results flagged for a closer look

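SVS1 had 1 array far from the other 3. The gap from array 2, at 0.18, to the next value, 0.65, took 0.946 of its whole range, which Dixon's limit for 4 samples marks. BUD8 was alike, with array 2 at 0.66 and the others between -0.43 and -0.29, a gap of 0.868 of the range. Such gaps were looked for in 30 named genes, and chance marks about 1 in 20. They are a description: SVS1 was chosen with these ratios known, and the limit takes the arrays as independent, while arrays 1 and 3 and arrays 2 and 4 correlate.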

How the results depend on the processing

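The count of features called was 200, and 187 to 213 with no centring, equal spread, no shared values, robust eBayes or centring within probe blocks, the last chosen after seeing the data. It was 98 after quantile normalization, 302 when arrays 2 and 4 had their signs turned, 2 at an adjusted p below 0.01, 2 with the pairs of arrays as random blocks (493 at an unadjusted p below 0.05), also chosen after seeing the data, and 0 to 22 with 1 array left out: 0 without array 1, 3 or 4 (898, 1066 and 752 features at an unadjusted p below 0.05 in limma) and 22 without array 2 (1016). The count of Start genes called was 0 in all these settings but the turned signs, where it was 1. Leaving out 1 array moved the mean ratio of 7 of the 9 Start genes by over 1.5 times or changed its sign, all but SWI6 and SVS1. The sign changed for SWI4 (-0.02 to 0.83), CLN3 (-0.15 to 0.99) and CLN2 (-0.01 to 0.27). The ranges were 0.19 to 0.43 for MBP1, 0.04 to 0.20 for WHI5, -0.27 to -0.09 for CLN1 and 0.01 to 0.29 for PCL1. In 54 of 54 values of the other settings without turned signs the means moved by less than 1 SD, a wide yardstick for SWI4 and CLN3. List medians moved by less than 1 SD of their array medians in 58 of 63 and 5 of 7 values. With turned signs the called genes NRM1, PHO85 and AGA1 had means of the opposite sign close to 0, at 0.0284, 0.0814 and -0.174, and KAP123 had -0.00418. Values so alike across arrays must nearly cancel when the signs of arrays 2 and 4 are turned, so these means do not test the calls. No paired analysis was possible because the labels pair no arrays within the single group, and the random blocks above rest on the correlations between arrays. With 4 arrays and no direction for the ratios, neither strain can be called higher.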
